A study of Danio rerio with 18 samples.

Results

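Uninjured ventricles of adult zebrafish with an induced deletion of tcf21 (conditional knock-out, cKO) were compared with uninjured ventricles of control fish. The comparison takes every library labelled as day 0, which gives 6 of the 18 libraries of the series, 3 cKO and 3 control. The other 12 libraries came from the same arms 3 days after a sham operation or 3 days after cryoinjury. They entered the fit to estimate the spread between replicates, and their own cKO effects are set beside the uninjured one at the end.

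Fish of both arms carried the same alleles: tcf21vln18/vln18, in which tcf21 is flanked by sites for Cre recombinase, Tg(ubbR:CreERT2*)vln2, an inducible Cre under a ubiquitous promoter, and TgBAC(tcf21:DsRed2)pd37, a red reporter driven by tcf21 regulatory sequence. The cKO fish received 3 baths of 24 h with 4-Hydroxytamoxifen at 5 µM, the ligand that sends CreERT2 to the nucleus, and hearts were taken 12 days after the first bath. The control fish received none per the labels, and what they received in its place is not given, so exposure to the drug and loss of the gene cannot be told apart. Because the promoter is ubiquitous, recombination was not limited to the cells that express tcf21. Each library held poly(A) RNA of 2 to 3 pooled ventricles. No label says which fish were handled together, so the p-values of the fit measure a spread between pools, estimated over all 18 libraries.

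Tcf21 is a basic helix-loop-helix transcription factor of the epicardium, the cell sheet that covers the heart, and of the fibroblasts and mural cells that descend from it. In zebrafish it is the standard marker of the epicardium, in development and in the adult. In mouse embryos Tcf21 is needed for epicardial cells to become cardiac fibroblasts. In an uninjured adult ventricle the epicardium is a thin layer, and most RNA of the tissue comes from cardiomyocytes, with endothelium, fibroblasts, blood cells and resident immune cells.

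The cKO libraries held 159566029, 124919844 and 137679459 estimated counts, against 153445011, 170943312 and 166666221 in the control libraries. Levels are given in CPM, a gene's counts scaled to a fixed library total and not corrected for gene length. Heart muscle markers were abundant: the myosin light chain gene myl7 stood at 15557, 13543 and 11300.0 CPM in cKO libraries and 19509, 13862 and 12883 CPM in control libraries. The 13 sarcomere genes tested had a median log2 difference of -0.14 with 0 at an unadjusted p under 0.05. The 4 atrium genes tested summed to 56728, 43735 and 24930 CPM in cKO libraries and 45286, 32051 and 30497 CPM in control libraries. These markers do not show how much atrium the pools held. Markers of other tissues were uneven, and some single genes were low. The pancreatic gene prss1 was at 0.749, 1.05 and 1.13 CPM in cKO libraries and 0.746, 0.513 and 1.30 CPM in control libraries. The 7 liver and pancreas genes tested summed to 76.1, 64.7 and 131 CPM in cKO libraries and 59.9, 51.7 and 87.2 CPM in control libraries. The bulbus arteriosus gene elnb was at 0.411, 0.705 and 0 CPM in cKO libraries and 2.79, 0 and 0 CPM in control libraries. The summed red blood cell list reached 1635, 1148 and 505 CPM in cKO libraries against 2409, 996 and 336 CPM in control libraries, a range wider within each arm than between them.

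Replicates of the uninjured groups differed more from each other than those of the other conditions. The common biological coefficient of variation, the relative spread between replicates beyond counting, was 0.575 in cKO and 0.597 in control ventricles, and 0.272 to 0.405 in the 4 other groups. Over the 9686 genes whose mean reached 5 CPM, the SD of the log2 ratio between a pair of libraries was 0.465 to 0.784 within the cKO arm, 0.705 to 0.830 within the control arm and 0.578 to 0.912 between the arms. The cKO library 3 stood apart on the first principal component, at 142 against a range of -77.0 to 27.66 for the other 5, and the component carried 30.3% of the variance. On the second component, with 23.4% of the variance, the cKO libraries were at 60.4, 59.6 and 9.07 and the control libraries at 26.7, -118 and -37.8, so the arms overlapped. Sequencing lane coincided with arm: per the file headers the 3 cKO libraries were read in lane 4 and the 3 control libraries in lane 2, so that in these 6 libraries lane and arm cannot be told apart.

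The targeted gene was the clearest difference between the arms. Tcf21 (chr23:31554269-31555696, minus strand, GRCz11) stood at 0.411, 0.820 and 0.891 CPM in cKO libraries and 7.35, 6.28 and 10.6 CPM in control libraries. The highest cKO library was thus below the lowest control library by a wide margin, and the cKO mean was 8.74% of the control mean. The fitted log2 fold change was -3.52 (SE 0.28, adjusted p = 1.31e-05, edgeR quasi-likelihood test with Benjamini-Hochberg adjustment). An exact two-sided permutation test of the 6 values gave p = 0.1, the smallest that 3 against 3 libraries allow. Since the transcript was measured in whole ventricles, fewer tcf21-expressing cells and less tcf21 RNA per cell cannot be told apart.

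Few genes beyond tcf21 passed the threshold. The test covered 20462 genes, and 27 (0.132%) passed, with an adjusted p under 0.05; these are referred to as called. In cKO ventricles 21 (0.103%) were higher and 6 (0.0293%) were lower. At an unadjusted p under 0.05 there were 1494 genes (7.3%) higher and 1312 (6.41%) lower. Among the 9686 genes whose mean reached 5 CPM, 5% to 95% of the fitted log2 fold changes lay between -0.60 and 0.56, and 2.32% of the genes passed a 2-fold change, 97 upward and 128 downward. The same interval over all genes tested was -1.50 to 1.73, and 17.4% passed 2-fold. In all 27 called genes the cKO libraries did not overlap the control libraries, against 5.04% of all genes with every cKO library above and 5.34% with every cKO library below. DESeq2 called all 27 as well, among 364 genes higher (1.78%) and 255 lower (1.25%), and 7 of them were called in each of the 6 fits that leave out 1 uninjured library. The fit of the 6 uninjured libraries alone called 0 genes, with 785 at an unadjusted p under 0.05. The calls rest on a spread estimated over the 18 libraries. The common coefficient of variation was higher in the uninjured groups, 0.575 and 0.597, than in the others, 0.272 to 0.405. A shared estimate can thus be too small for the uninjured groups, and the calls too lenient. Single libraries moved the count: it was 12 without control library 2 and 557 without control library 3, 71, 20 and 70 without cKO library 1, 2 or 3, 129 without control library 1, and 11 to 39 without 1 of the sham or cryoinjury libraries.

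The called genes fell into 2 kinds by level. In 17 of them both arms had counts, and 8 had a mean of at least 5 CPM. The other 10 had 0 counts in all 3 libraries of one arm, 6 in control and 4 in cKO, with traces in the other.

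The called genes kif20a, cenpi, melk, chtf18 and prr11 rose in cKO ventricles. They are described together for their known roles in the cell cycle, a grouping made after they were called, and of the 5 only kif20a is on the mitosis or the DNA replication list. Kif20a, a kinesin of the late mitotic spindle and cytokinesis, was at 8.05, 1.61 and 1.204 CPM in cKO libraries and 0.517, 0.156 and 0.380 CPM in control libraries. Its fitted log2 fold change was 3.38 (SE 0.62, edgeR adjusted p = 0.0417). The cKO library 1 was far above the other cKO libraries, and without it the log2 fold change was 2.01. Cenpi, a centromere protein needed to build the kinetochore, was at 2.85, 2.09 and 1.32 CPM in cKO libraries and 0.695, 0.463 and 0.740 CPM in control libraries (log2 fold change 1.72, SE 0.30, edgeR adjusted p = 0.0394). Melk, a protein kinase most abundant in dividing cells, was at 2.22, 0.449 and 1.74 CPM in cKO libraries and 0.127, 0.3005 and 0.193 CPM in control libraries, a log2 fold change of 2.82. Chtf18, a subunit of the complex that loads the PCNA clamp onto DNA, was at 2.82, 1.52 and 1.196 CPM in cKO libraries and 0.704, 0.344 and 0.393 CPM in control libraries, a log2 fold change of 1.95. Prr11, in human cells a gene of the late cell cycle, was at 1.89, 1.11 and 1.06 CPM in cKO libraries and 0.229, 0.488 and 0.373 CPM in control libraries. Its log2 fold change was 1.89 (SE 0.31, edgeR adjusted p = 0.0242), and it was called in all 6 fits without 1 library. The call was lost in 3 of these fits for cenpi, 3 for chtf18, 2 for melk and 1 for kif20a. All 5 were below 10 CPM in every uninjured library. Kif20a and chtf18 each overlap a gene on the other strand, whose reads cannot be told from theirs because no source says that strand was used.

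The wider list of mitosis genes lay on the same side. Of 45 tested, 45 had a fitted change above 0 (49.1% of all genes did), with a median log2 fold change of 1.39, where the median of all genes was 0. Kif20a was the 1 member called by edgeR, and DESeq2 called 20 higher. By edgeR 39 were higher at an unadjusted p under 0.05, where 7.3% of all genes were. In 16 every cKO library exceeded every control library, against 5.04% of all genes. The values were uneven between libraries, however: the summed level of the list was 343, 117 and 100.1 CPM in cKO libraries and 93.5, 73.4 and 58.7 CPM in control libraries. The cKO library 1 alone stood far above the rest, while cKO libraries 2 and 3 lay just above the highest control library.

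Single members differed in how far cKO libraries 2 and 3 stood from the controls. The cyclin-dependent kinase gene cdk1 was at 14.8, 4.76 and 4.097 CPM in cKO libraries and 2.31, 2.22 and 1.48 CPM in control libraries, a log2 fold change of 1.98 that missed the threshold (edgeR adjusted p = 0.0553). Top2a, the topoisomerase that untangles sister chromatids, was at 26.2, 8.19 and 4.88 CPM in cKO libraries and 4.54, 2.26 and 3.80 CPM in control libraries, a log2 fold change of 1.89 (adjusted p = 0.107). In both genes the arms did not overlap. Mki67, the common proliferation marker, was at 19.0, 7.40 and 4.25 CPM in cKO libraries and 5.51, 6.82 and 3.49 CPM in control libraries (log2 fold change 0.95, adjusted p = 0.287), and its arms overlapped. The aurora kinase gene aurkb and the polo-like kinase gene plk1 had log2 fold changes of 1.16 and 0.84 and overlapped as well. Without cKO library 1 the log2 fold change was -0.04 for aurkb, -0.12 for plk1 and 0.14 for mki67, against 1.14 for cdk1 and 0.89 for top2a. Without that library the median of the list was 0.65, with 37 of 45 members above 0 and 15 higher at an unadjusted p under 0.05, where 7.06% of all genes were.

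Genes of DNA replication and S phase followed less closely. Of 38 tested, 35 had a change above 0, the median was 0.84, and 19 were higher and 1 lower at an unadjusted p under 0.05. Of all genes 7.3% were higher and 6.41% lower at that p. EdgeR called 0 and DESeq2 called 4 higher. Mcm7, a subunit of the replicative helicase, was at 31.3, 17.8 and 20.2 CPM in cKO libraries and 9.08, 8.46 and 12.9 CPM in control libraries (log2 fold change 1.19, edgeR adjusted p = 0.0857). All its cKO values were above all its control values, and it overlaps 3 genes on the same strand. Pcna, the sliding clamp, was at 87.0, 51.2 and 33.2 CPM in cKO libraries and 40.1, 32.2 and 22.6 CPM in control libraries (log2 fold change 0.85, adjusted p = 0.211). Its arms overlapped, and the cKO library 1 was again the highest. Orc6, of the origin recognition complex, was on the other side, at 11.8, 4.41 and 3.47 CPM in cKO libraries and 7.38, 13.4 and 15.2 CPM in control libraries (log2 fold change -0.87), and it overlaps 2 genes on the other strand. Without cKO library 1 the median of the list was 0.25, and 2 members were higher and 2 lower at an unadjusted p under 0.05. Of 20991 genes tested in that fit, 1483 (7.06%) were higher and 1695 lower at that p.

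**Figure D1:**
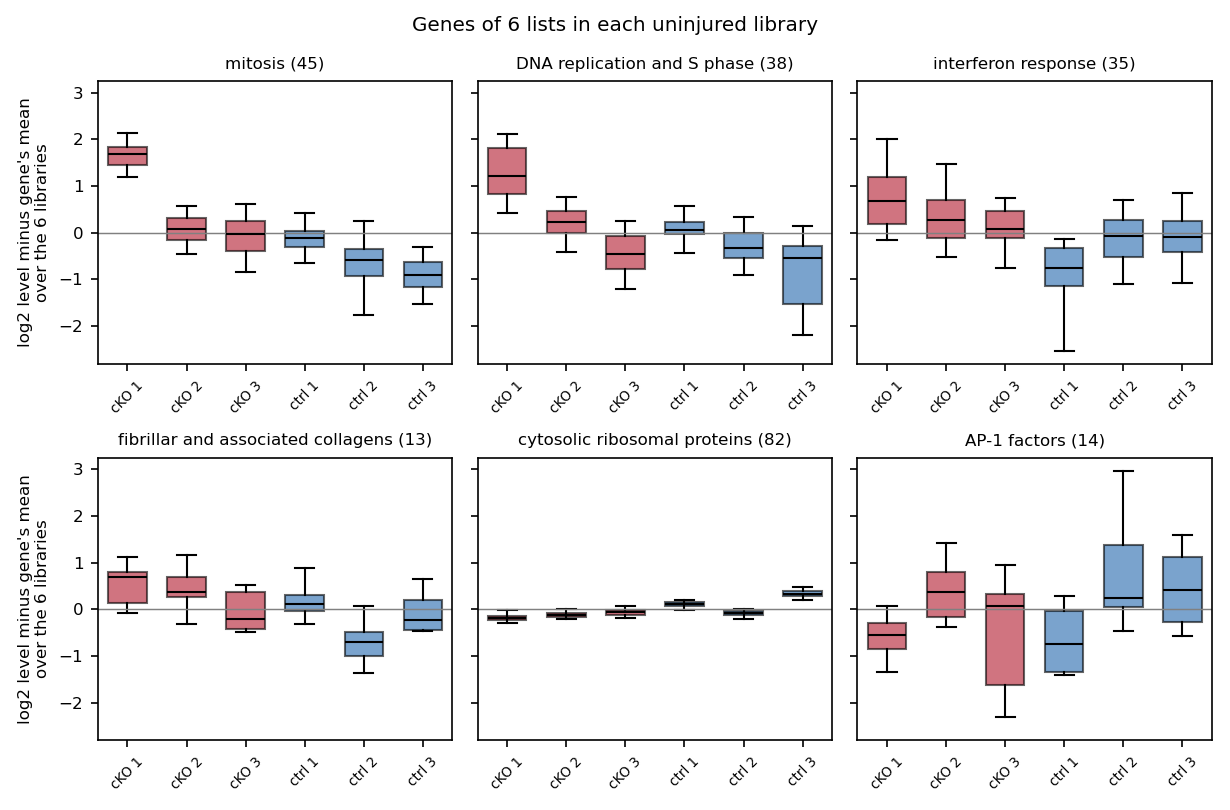
Genes of 6 lists in each of the 6 uninjured libraries (cKO red, control blue). The vertical axis is a gene's log2 level minus its mean over the 6 libraries, boxes give quartiles and median, whiskers the 5th to 95th percentile, and the number of genes is in brackets. In mitosis the cKO 1 box lies above all others, in the interferon response the control 1 box lies below all others, and the ribosomal protein boxes are narrow, with cKO at the lower end.

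Genes induced by interferons, the cytokines of the antiviral response, also lay mostly on the upper side. Ifi27.7, a member of the small interferon-inducible Ifi27 family, was at 27.745, 23.4 and 18.8 CPM in cKO libraries and 7.10, 8.97 and 11.4 CPM in control libraries. It rose by a log2 fold change of 1.35 (SE 0.19, edgeR adjusted p = 0.00907), with no overlap, and was called in all 6 fits without 1 library. Mov10b.1, related to the mammalian RNA helicase MOV10 that restricts retroviruses and retroelements, was at 25.2, 21.1 and 11.5 CPM in cKO libraries and 7.15, 6.17 and 7.56 CPM in control libraries (log2 fold change 1.47, SE 0.27, adjusted p = 0.0394). The cKO library 3 was the lowest of its arm but still above every control library. The call of mov10b.1 was lost in 3 of the 6 fits without 1 library.

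Of 35 interferon genes tested, 30 had a change above 0, the median was 0.41, edgeR called 2 higher and DESeq2 9, and 13 were higher at an unadjusted p under 0.05. Of all genes 7.3% were higher at that p. In 10 list members every cKO library exceeded every control library, against 5.04% of all genes. Isg15, the ubiquitin-like modifier of the response, was at 5.70, 5.66 and 2.82 CPM in cKO libraries and 1.71, 0.419 and 0.746 CPM in control libraries (log2 fold change 2.31, edgeR adjusted p = 0.0553). Ifi27.4 was at 26.7, 21.4 and 19.5 CPM in cKO libraries and 5.48, 10.4 and 13.5 CPM in control libraries (log2 fold change 1.199, adjusted p = 0.0756). The arms of both genes were apart. The signalling gene stat2 was at 81.0, 68.3 and 46.0 CPM in cKO libraries and 31.5, 32.6 and 39.5 CPM in control libraries (log2 fold change 0.91, adjusted p = 0.0911). Stat1a and irf7, which act beside it, had log2 fold changes of 0.07 and 0.34 with overlapping arms.

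The interferon list was least even in the control arm. Its summed level was 629.7, 548 and 538 CPM in cKO libraries and 311, 542 and 513 CPM in control libraries, so control library 1 was low and the other control libraries were close to the cKO ones. Without control library 1, 23 of 35 members were above 0 and the median was 0.49. Leaving out each uninjured library in turn gave medians of 0.36, without cKO library 1, to 0.83, without control library 3, and of 0.62, 0.65 and 0.67 without control library 2, cKO library 3 or cKO library 2. Macrophage markers, cells that respond to interferon, were low in the same library: their summed level was 669, 418 and 1082 CPM in cKO libraries and 316, 527 and 957 CPM in control libraries. That 16-gene list had a median of 0.27 with 0 called by edgeR or DESeq2. At an unadjusted p under 0.05, 2 of its genes were higher, against 7.3% of all genes. The part of this list in the interferon values was not tested.

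The remaining called genes with counts in both arms were of mixed function. Sox4b, a transcription factor of the SoxC group, was at 13.04, 18.5 and 18.9 CPM in cKO libraries and 5.13, 5.02 and 8.75 CPM in control libraries. It rose by a log2 fold change of 1.42 (SE 0.23, edgeR adjusted p = 0.0242), and the call was lost in 2 of the 6 fits without 1 library. Its relative sox11a was at 7.80, 8.13 and 4.07 CPM in cKO libraries and 3.67, 4.38 and 5.74 CPM in control libraries, with overlapping arms. Among the 15 Sox genes tested the median was 0.35, with sox4b the 1 called. Sesn3, which in mammals restrains the growth kinase complex mTORC1, was at 71.6, 78.8 and 81.0 CPM in cKO libraries and 56.7, 38.9 and 42.3 CPM in control libraries. Its rise was the smallest among called genes on the upper side, a log2 fold change of 0.75 (SE 0.13, edgeR adjusted p = 0.0394). It overlaps 2 genes on the other strand, and the call was lost in 3 of the 6 fits without 1 library.

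Plaua, a urokinase-type plasminogen activator that starts proteolysis of fibrin and matrix, was at 1.28, 0.608 and 1.23 CPM in cKO libraries and 0.0763, 0.207 and 0.0466 CPM in control libraries. It rose by a log2 fold change of 3.21 (SE 0.49, edgeR adjusted p = 0.0160) and was called in all 6 fits without 1 library. It overlaps 1 gene on the other strand. Abhd6b, of a family of monoacylglycerol lipases, was at 0.771, 0.599 and 0.798 CPM in cKO libraries and 0.178, 0.225 and 0.147 CPM in control libraries, a log2 fold change of 1.97. Its replicates were tight, yet the call was lost in 5 of the 6 fits without 1 library, and it overlaps 1 gene on the other strand. Tmem238a, a transmembrane protein gene, was at 0.308, 0.529 and 0.626 CPM in cKO libraries and 0.0933, 0.0188 and 0.0400 CPM in control libraries, a log2 fold change of 3.28. Its call was lost in 2 of the 6 fits without 1 library.

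The next 3 called genes have only clone names. The gene ENSDARG00000087575, drawn in the plot of called genes under its zmp name, was at 9.26, 7.91 and 6.26 CPM in cKO libraries and 3.26, 2.40 and 2.94 CPM in control libraries (log2 fold change 1.44, SE 0.20, edgeR adjusted p = 0.00907), and was called in all 6 fits without 1 library. The gene si:ch73-252i11.1 was at 19.2, 19.0 and 23.2 CPM in cKO libraries and 7.96, 7.92 and 10.9 CPM in control libraries (log2 fold change 1.199). The gene wu:fj29h11 was at 52.6, 41.2 and 33.7 CPM in cKO libraries and 13.7, 20.1 and 24.7 CPM in control libraries (log2 fold change 1.12), and it overlaps 1 gene on the same strand. Of the 6 fits without 1 library, the call was lost in 1 for si:ch73-252i11.1 and 3 for wu:fj29h11.

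On the lower side, dhx38 was the 1 called gene beside tcf21 with counts in both arms. It encodes a DEAH-box helicase that remodels the spliceosome before the second step of splicing. It was at 14.8, 14.9 and 14.6 CPM in cKO libraries and 24.6, 23.1 and 22.0 CPM in control libraries, so that both arms were tight and apart. The fitted log2 fold change was -0.65 (SE 0.12, edgeR adjusted p = 0.0394), the smallest change among the called genes, and the call was lost in 4 of the 6 fits without 1 library. Of 38 spliceosome and RNA helicase genes tested, 37 had a change below 0, against 49.7% of all genes. Their median was -0.21, 1 was called lower and 5 were lower at an unadjusted p under 0.05, where 6.41% of all genes were. Ddx46, a helicase of the early spliceosome, was at 60.2, 54.4 and 67.0 CPM in cKO libraries and 69.0, 77.4 and 79.5 CPM in control libraries (log2 fold change -0.31, adjusted p = 0.268). These are small differences in one direction, and the members share the libraries.

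The 10 called genes with an arm at 0 were all below 1 CPM, and 9 of them are named here. Listed at 0 in every control library were ENSDARG00000041221, at 0.198, 0.132 and 0.399 CPM in cKO libraries, and dlk2, a Delta-like membrane protein, at 0.147, 0.203 and 0.438 CPM. So were gpat2, a glycerol-3-phosphate acyltransferase, at 0.132, 0.194 and 0.195 CPM in cKO libraries, ENSDARG00000110173, at 0.132, 0.326 and 0.438 CPM, and si:ch211-11c3.12, at 0.250, 0.0617 and 0.219 CPM, which overlaps 1 gene on the other strand. Listed at 0 in every cKO library were cyp2k8, a cytochrome P450, at 0.136, 0.263 and 0.340 CPM in control libraries, and alkal2a, a ligand of the receptor kinase ALK, at 0.220, 0.156 and 0.453 CPM. The finTRIM gene ftr25 was at 0.526, 0.695 and 0.380 CPM in control libraries, and rhoh, a small GTPase of blood cells in mammals, at 0.187, 0.250 and 0.213 CPM. Their edgeR adjusted p-values ran from 0.00739 for ENSDARG00000041221 to 0.0471 for si:ch211-11c3.12. No fold of the uninjured comparison is given for these genes, since the reads behind a count are not known and the fitted value depends on the prior count. Beside rhoh, the 13 T and NK cell markers tested summed to 12.4, 15.7 and 32.0 CPM in cKO libraries and 7.56, 17.3 and 26.0 CPM in control libraries, which overlap.

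Markers of the epicardium lay on both sides of 0. Of 15 tested, 8 had a change above 0 and 7 below, with a median of 0.20. Tcf21 was the 1 called, and at an unadjusted p under 0.05 there were 3 higher and tcf21 lower. Tbx18, a transcription factor of the same layer, was at 8.10, 12.7 and 8.28 CPM in cKO libraries and 6.32, 3.98 and 5.37 CPM in control libraries (log2 fold change 0.89, edgeR adjusted p = 0.238). Aldh1a2, which makes retinoic acid in epicardium and endocardium, was at 68.2, 76.8 and 77.0 CPM in cKO libraries and 43.4, 65.1 and 38.2 CPM in control libraries (log2 fold change 0.60, adjusted p = 0.248). In both genes every cKO library exceeded every control library. Wt1b, also of the epicardium, had a log2 fold change of -0.69 and wt1a of 0.20, and krt8, a keratin of the layer, of -0.03, each with overlapping arms. The 15 retinoic acid genes tested, aldh1a2 among them, had a median of -0.25, with 5 above 0 and 0 called by edgeR. At an unadjusted p under 0.05, 4 were higher and 1 lower, against 7.3% and 6.41% of all genes. In that list rbp4, the retinol carrier, was at 178, 154 and 164 CPM in cKO libraries and 250.3, 248 and 334 CPM in control libraries (log2 fold change -0.75, edgeR adjusted p = 0.123).

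Matrix genes of fibroblasts, which descend in part from tcf21-expressing cells, lay mostly on the upper side, with 0 called by edgeR and 2 called higher by DESeq2. Of 20 fibroblast genes tested, 15 had a change above 0 and the median was 0.44. At an unadjusted p under 0.05, 8 were higher and 2 lower, against 7.3% and 6.41% of all genes. The 2 fibronectin genes differed in direction. Fn1a was at 73.9, 53.2 and 62.8 CPM in cKO libraries and 22.8, 30.1 and 27.5 CPM in control libraries (log2 fold change 1.24, edgeR adjusted p = 0.0572), with no overlap. Fn1b was at 217, 216 and 190.5 CPM in cKO libraries and 274, 367 and 321 CPM in control libraries (log2 fold change -0.63, adjusted p = 0.328). Its arms were apart in the other direction. Pdgfra, the receptor that marks fibroblasts, was at 18.5, 40.6 and 47.6 CPM in cKO libraries and 20.9, 40.8 and 45.01 CPM in control libraries, with a log2 fold change of -0.00. Dcn and postnb, a proteoglycan and a matricellular protein of these cells, had log2 fold changes of 0.21 and 0.24.

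Collagens of fibrils were on the same side. Of 13 tested, 11 had a change above 0 and the median was 0.55, with 0 called and 2 higher at an unadjusted p under 0.05 by edgeR, and 1 called by DESeq2. Col1a2 was at 427, 398 and 240.5 CPM in cKO libraries and 230.0, 128 and 186 CPM in control libraries (log2 fold change 0.97, edgeR adjusted p = 0.186), with no overlap. Col1a1a was at 584, 532 and 292 CPM in cKO libraries and 333, 199 and 243 CPM in control libraries (log2 fold change 0.86, adjusted p = 0.209), with overlap. Col1a1a, col1a2 and fn1b each overlap 1 gene on the other strand. The summed level of the list was 2072, 1862 and 1088 CPM in cKO libraries and 1349, 772 and 975 CPM in control libraries, so that cKO library 3 was below the highest control library. Among enzymes of matrix turnover, mmp2, a gelatinase of fibroblasts, was at 113, 110.1 and 83.9 CPM in cKO libraries and 57.0, 30.2 and 74.2 CPM in control libraries (log2 fold change 0.93, adjusted p = 0.166). Mmp9, the gelatinase of myeloid cells, was at 0.279, 0.229 and 0.203 CPM in cKO libraries and 0.415, 2.13 and 1.66 CPM in control libraries (log2 fold change -2.56, adjusted p = 0.104).

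**Figure D2:**
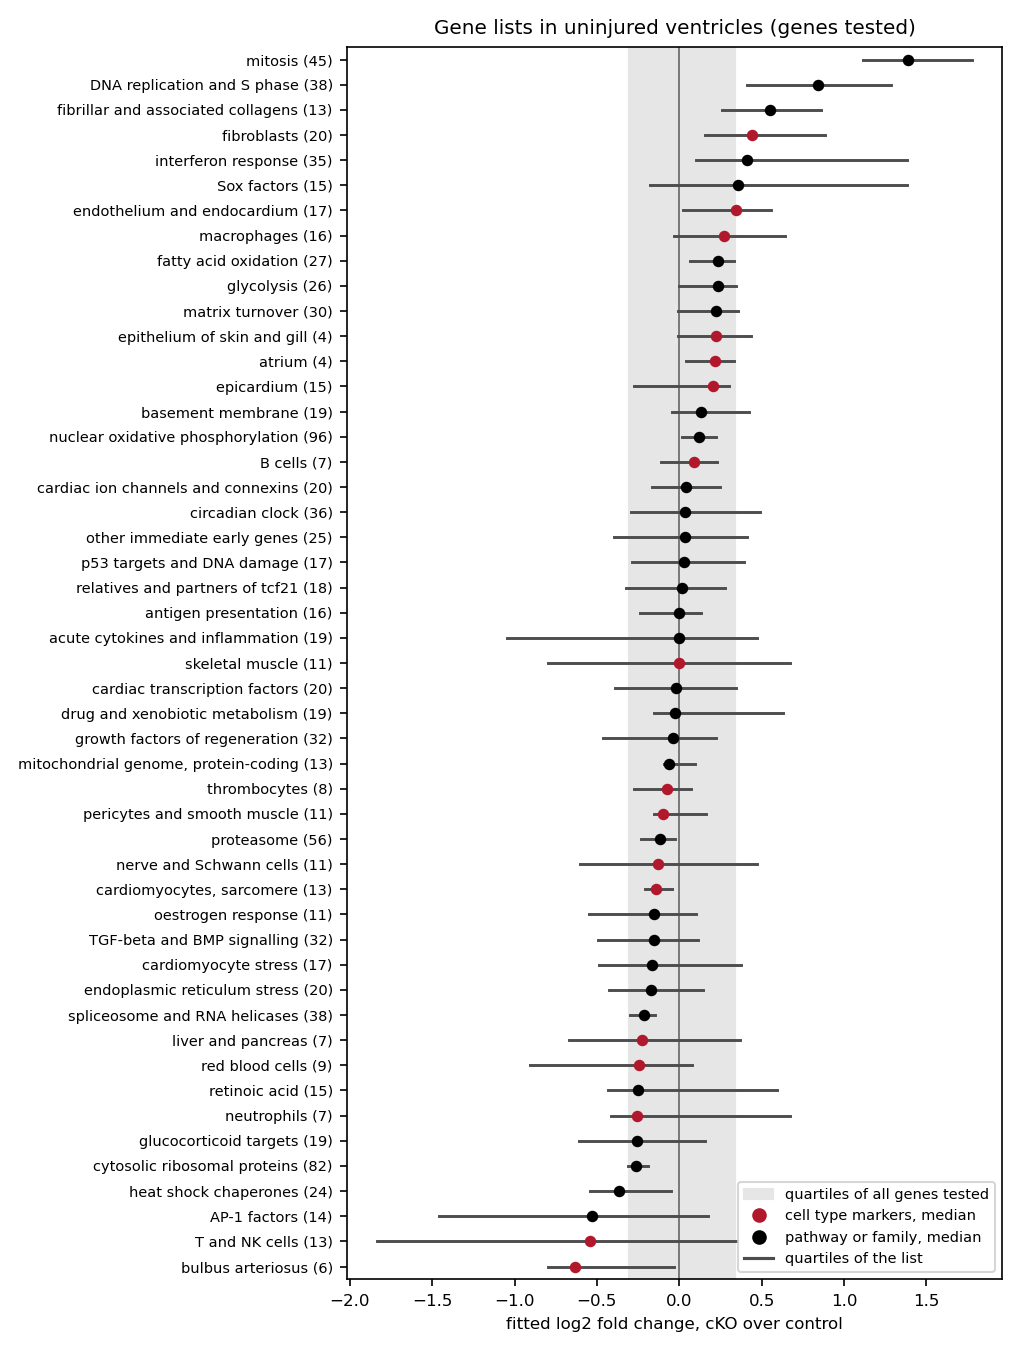
Median (point) and quartiles (line) of the fitted log2 fold change of cKO over control for 49 gene lists, cell type markers in red and pathways or families in black, with the number of genes tested in brackets. The grey band gives the quartiles of all genes tested, -0.30 to 0.34. Mitosis, DNA replication and S phase, fibrillar collagens, fibroblasts, the interferon response, Sox factors and, barely, endothelium have medians above the band, AP-1 factors, T and NK cells, the bulbus arteriosus and heat shock chaperones have medians below it, and the other lists lie within it.

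Over all 49 lists, 14 had a median above 0.2 and 11 below -0.2. Their members, 1052 genes tested, held 4 of the genes called higher and 2 of those called lower. Of all genes 0.103% were called higher and 0.0293% lower. At an unadjusted p under 0.05, 126 members were higher and 51 lower, where 7.3% of all genes were higher and 6.41% lower. The lists were chosen with earlier results of these data known, so these counts are not a test of the lists. The cytosolic ribosomal proteins formed the largest list below 0. Of 82 genes tested, 79 were below 0, with a median of -0.26 and quartiles of -0.31 and -0.19. None was called by edgeR or DESeq2, and 1 was higher and 2 lower at an unadjusted p under 0.05. In 26 every cKO library was below every control library, against 5.34% of all genes. Their summed level was 52059, 53364 and 57665 CPM in cKO libraries and 63676, 56925 and 75691 CPM in control libraries. The highest cKO library exceeded the lowest control library.

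Other lists of the myocardium lay near 0. The 96 nuclear genes of oxidative phosphorylation had a median of 0.12 with 0 called by edgeR or DESeq2 and 1 higher at an unadjusted p under 0.05, and the 20 genes of cardiac ion channels and connexins a median of 0.04. Among the channel genes, kcnh6a, a potassium channel that repolarises the ventricle, was at 799, 557 and 299.6 CPM in cKO libraries and 1036, 2111 and 830.2 CPM in control libraries (log2 fold change -1.26, edgeR adjusted p = 0.167). Among 32 growth factor genes of heart regeneration, the insulin-like growth factor receptor gene igf1rb was at 10.8, 15.2 and 14.5 CPM in cKO libraries and 27.5, 34.9 and 17.5 CPM in control libraries (log2 fold change -0.98, adjusted p = 0.151). Its paralog igf1ra had a log2 fold change of -0.87 (adjusted p = 0.123), and the arms of both were apart. Lists of drug and oestrogen response were fixed because of the bath. Nqo1, a quinone reductase of the oxidative stress response, was at 10.4, 8.22 and 9.96 CPM in cKO libraries and 5.54, 5.20 and 4.62 CPM in control libraries (log2 fold change 0.90, adjusted p = 0.173). The oestrogen receptor gene esr1 was at 5.39, 3.45 and 2.85 CPM in cKO libraries and 2.57, 1.62 and 2.61 CPM in control libraries (log2 fold change 0.78, adjusted p = 0.220). The 19 genes of drug metabolism and the 11 of oestrogen response had medians of -0.02 and -0.15. EdgeR called 0 in either, with 3 and 1 higher and 0 and 1 lower at an unadjusted p under 0.05, and DESeq2 called 2 of the drug metabolism genes higher. Of all genes 7.3% were higher and 6.41% lower at that p, and DESeq2 called 1.78% higher. Every cKO library exceeded every control library in 5 drug metabolism genes and 1 oestrogen response gene, against 5.04% of all genes.

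Several immediate early genes and stress genes were far higher in control library 2 than in the other libraries. The summed levels of the AP-1 and other immediate early lists were highest in control library 3 instead. The 19 genes of acute cytokines and inflammation tested were highest in control library 2. They summed to 497, 364 and 609 CPM in cKO libraries and 195, 1836 and 865 CPM in control libraries. The AP-1 list of 14 genes had a median of -0.53, with 5 above 0. At an unadjusted p under 0.05, 3 were lower, against 6.41% of all genes. EdgeR called 0 and DESeq2 called 1 lower. Fosab was at 2.00, 3.40 and 4.02 CPM in cKO libraries and 1.46, 30.9 and 2.57 CPM in control libraries. Junba was at 9.87, 10.8 and 17.04 CPM in cKO libraries and 3.26, 98.5 and 11.2 CPM in control libraries. Control library 2 was high in both, as it was for fosl1a and for the natriuretic peptide gene nppb, at 30.1, 243 and 39.6 CPM in cKO libraries and 52.3, 1077 and 94.5 CPM in control libraries. The signalling inhibitor gene socs3b was likewise at 23.2, 37.5 and 36.3 CPM in cKO libraries and 21.3, 339.7 and 34.9 CPM in control libraries. Without control library 2 the AP-1 median was -0.16. The summed AP-1 level was 252, 503 and 380 CPM in cKO libraries and 159, 487 and 617 CPM in control libraries. The 25 other immediate early genes tested had a median of 0.04, with 0 called by edgeR. Their summed level was 1127, 1050 and 925 CPM in cKO libraries and 320, 917 and 1628 CPM in control libraries. Of the list members named so far, plk1, ddx46, wt1b, igf1ra and fosl1a each overlap 1 gene on the other strand, and fosab and socs3b overlap 2. Among the uninjured libraries, control library 2 was also the one whose removal left the fewest called genes, 12. Of the 27, 22 had their highest adjusted p there. A count that low was not particular to it, since leaving out 1 sham or cryoinjury library gave 11 to 39.

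A term for sequencing lane could be fitted only through the sham control group, of which 2 libraries were read in lane 2 and 1 in lane 4. With this term 1 gene was called, tcf21 (log2 fold change -3.33, edgeR adjusted p = 0.0400), and 2.99% of all genes were higher and 2.72% lower at an unadjusted p under 0.05. The lane term itself called 0 genes by edgeR, with 577 (2.82%) at an unadjusted p under 0.05. Its sign was the same as that of the change in 10 of the 27 called genes. The list medians with the lane term were 1.61 for mitosis, 1.09 for DNA replication and S phase, 0.95 for fibrillar collagens and 0.31 for the interferon response. They were -0.54 for ribosomal proteins and -0.18 for the spliceosome. At an unadjusted p under 0.05, the genes higher without and with the term were 39 and 16 of 45 for mitosis and 19 and 3 of 38 for DNA replication. They were 13 and 4 of 35 for interferon and 2 and 2 of 13 for collagens. The genes lower were 2 and 11 of 82 for ribosomal proteins and 5 and 1 of 38 for the spliceosome. These 6 lists kept their sign, but 18 of the 49 lists changed it, 7 of them with a median beyond 0.2 without the term. Those 7 were heat shock chaperones, at -0.37 without the term and 0.38 with it, the bulbus arteriosus, at -0.63 and 0.28, glucocorticoid targets, at -0.26 and 0.32, retinoic acid, at -0.25 and 0.16, red blood cells, at -0.25 and 0.10, macrophages, at 0.27 and -0.06, and the epithelium of skin and gill, at 0.22 and -0.49. The estimate rests on 1 sham control library in lane 4 and has the spread of that library in it.

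**Figure D3:**
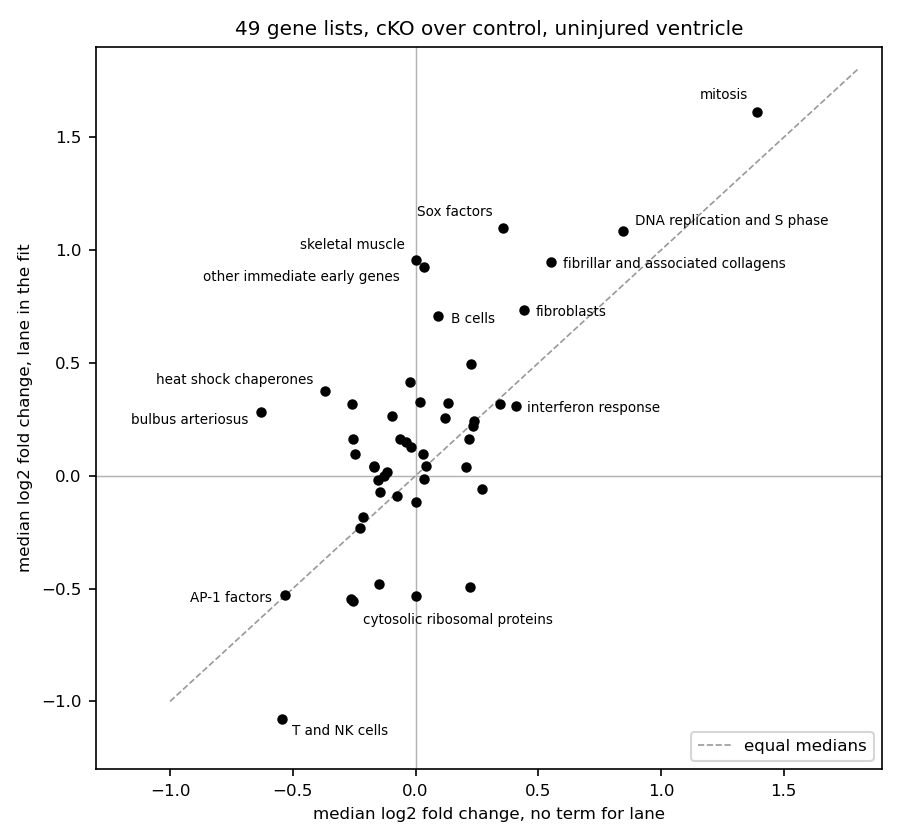
Median log2 fold change of cKO over control for each of 49 gene lists without (horizontal) and with (vertical) a term for sequencing lane; the dashed line marks equal medians. Mitosis, DNA replication and S phase and fibrillar collagens lie above 0 on both axes, AP-1 factors and ribosomal proteins below 0 on both, and heat shock chaperones are at -0.37 and 0.38.

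The same contrast in sham and cryoinjured ventricles shares no library with the uninjured one, and it allowed a test of whether the fitted cKO effect differed. Per the file headers both cryoinjury arms and the sham cKO libraries were read in lane 4, and the sham control libraries in both lanes. Without the lane term, these differences therefore also hold any effect of lane in the uninjured comparison, most fully against cryoinjury. Tcf21 was lower in all 3 conditions, with log2 fold changes of -4.39 after sham and -4.18 after cryoinjury. In those conditions 3 genes (0.0147%) and 1 gene (0.00489%) were called between the arms. The difference of the cKO effect, uninjured minus sham, was called for 5 genes (0.0244%), and uninjured minus cryoinjury for 5 (0.0244%). Among genes called in the uninjured comparison, prr11 had a log2 fold change of -1.11 after sham, a difference of 2.99 (edgeR adjusted p = 0.0130). Its levels after sham were 0.908, 1.07 and 0.996 CPM in cKO libraries and 1.88, 2.42 and 2.12 CPM in control libraries, so the order of the arms was the opposite. Plaua had a log2 fold change of -0.92 after cryoinjury, a difference of 4.13 (adjusted p = 0.0404). Sox4b had -0.74 after cryoinjury, a difference of 2.16 (adjusted p = 0.0383), with 15.1, 20.7 and 17.3 CPM in cKO libraries and 26.0, 30.3 and 32.3 CPM in control libraries. Of the 12 fits that leave out 1 library of the conditions compared, the difference was called in 10 for prr11, 7 for plaua and 6 for sox4b. With the lane term, prr11 kept its call against sham (adjusted p = 0.0391), and 0 genes were called against cryoinjury.

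The median of the mitosis list had a different sign in the uninjured comparison. Its median was 1.39 uninjured, -0.64 after sham, with 3 of 45 genes above 0, and -0.25 after cryoinjury, with 5 above 0. At an unadjusted p under 0.05 the arms differed upward in 3.73% and downward in 4.31% of all genes after sham, and upward in 4.58% and downward in 3.01% after cryoinjury. In the mitosis list 10 genes were lower and 0 higher after sham, and 0 were lower or higher after cryoinjury. In the contrast uninjured minus sham, 40 of its 45 genes were positive at an unadjusted p under 0.05. EdgeR called 0, the fit with the replicate block 1 and DESeq2 19. Of all genes 4.98% were positive and 4.22% negative, and DESeq2 called 0.801% positive. In uninjured minus cryoinjury 34 were positive, where 5.4% of all genes were positive and 5.79% negative. EdgeR called 0, the fit with the block 1 and DESeq2 8, where DESeq2 called 0.714% of all genes positive. Without cKO library 1 the counts of positive genes at an unadjusted p under 0.05 were 25 against sham and 14 against cryoinjury. Of all 20991 genes tested in that fit, 1060 and 1248 were positive. With the lane term the counts for the list were 38 and 15, where 908 and 566 of 20462 genes were positive. Fibrillar collagens had medians of 0.55 uninjured, -0.46 after sham and 0.08 after cryoinjury, and 7 of 13 genes were positive in uninjured minus sham at an unadjusted p under 0.05, against 0 of 13 in uninjured minus cryoinjury. The interferon list had 0.41, 0.23 and 0.03 in the same order. Within it ifi27.7 had log2 fold changes of 0.41 after sham and 0.55 after cryoinjury, and mov10b.1 of 0.60 and 0.79. Stat2 had 0.75 and 0.78, so these 3 genes lay on the upper side in each condition.

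**Figure D4:**
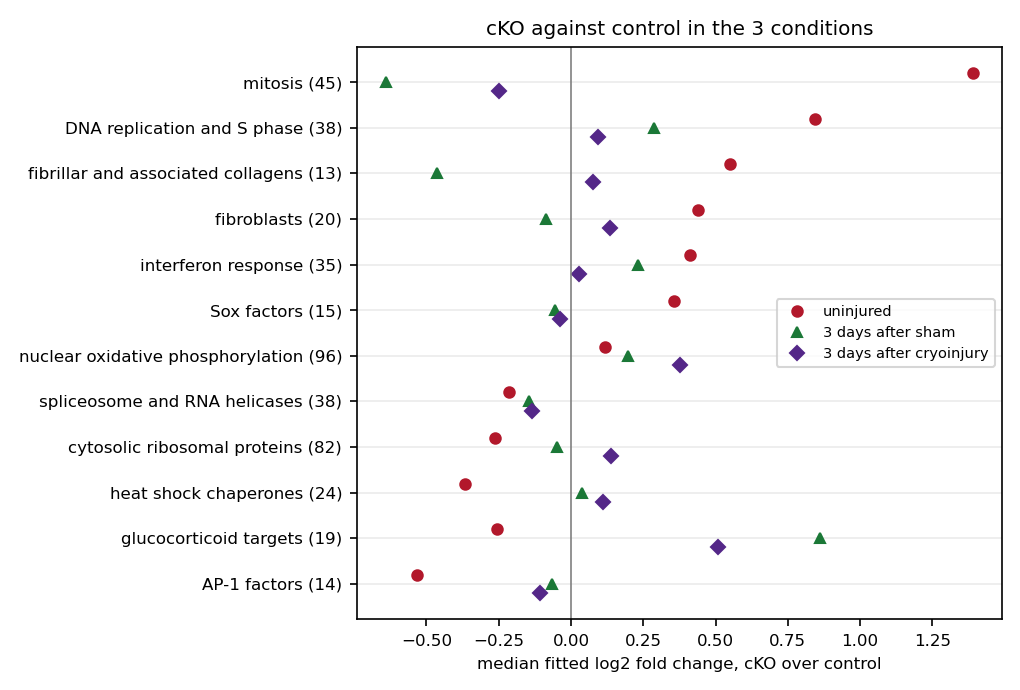
Median fitted log2 fold change of cKO over control for 12 gene lists in uninjured ventricles (red circles), 3 days after sham (green triangles) and 3 days after cryoinjury (purple diamonds), number of genes tested in brackets. Mitosis is at 1.39 uninjured, -0.64 after sham and -0.25 after cryoinjury, while the spliceosome list is below 0 in all 3.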

How the data were processed

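Poly(A) RNA of pooled ventricles was sequenced. Per the submitters' processing notes the tools were FastQC 0.11.9, Trim Galore 0.6.10, HISAT2 2.1.0 and StringTie 2.1.1, with the build GRCz11. The authors deposited estimated counts per gene for 25107 genes, and in the 6 uninjured libraries each equals StringTie coverage times length over 75, rounded. A count is thus not a read, intervals for counting error are not given, and the strand used is not given in the sources used here. No column was left without a sample.

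Symbols came from the files and, for 10717 genes, from RefSeq names; 707 genes share a symbol. The 18 libraries were fitted together with 6 group means (R 4.3.3, edgeR 4.0.16 quasi-likelihood, robust, trimmed-mean normalisation, filter by group), leaving 20462 genes. The fit used the default prior count of edgeR. A prior count of 2 entered the log2 levels behind the principal components, the spread between pairs of libraries and the correlations between replicate numbers. Called means a Benjamini-Hochberg adjusted p under 0.05. DESeq2 1.42.0 was one alternative. The script was tested on simulated data with the same spread in every group. The groups here differ in spread, so that test does not measure the error rate of these calls. The 49 gene lists name 1207 members, of which 1121 matched and 1052 were tested. The lists, the named genes (every called gene, and of each list the largest changes and the defining members) and the comparison itself were chosen with earlier results of these data known. Some members were shown for other reasons, after their values were seen. A wrong alias was taken out of the T and NK cell list after the files had been read. A called gene is not reported here.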

Additional observations from a re-analysis of the deposited data

Results flagged for a closer look

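The fitted cKO effect differed between conditions in 10 tests (edgeR without a term for lane, difference of the log2 changes, adjusted p under 0.05). Values are in CPM.

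Against sham, TNC, a name that 2 genes share and that denotes the matrix glycoprotein tenascin C, had a difference of 4.0136 (adjusted p = 0.0130). It was at 1.09, 0.635 and 0.469 CPM in uninjured cKO libraries and 0.305, 1.02 and 0.740 CPM in uninjured control libraries. After sham it was at 3.51, 4.51 and 5.67 CPM in cKO libraries and 74.2, 75.1 and 60.5 CPM in control libraries. The call was kept in 9 of 12 fits without 1 library. The difference for prr11 was 2.9937 (adjusted p = 0.0130). Also called were 3 genes with an uninjured arm at 0, and their fitted sizes depend on the prior count: ENSDARG00000041221 at 8.7424 (adjusted p = 0.0130), ftr25 at -14.218 (adjusted p = 0.0130) and cyp2k8 at -9.2865 (adjusted p = 0.0295). Ftr25 was at 0.182, 0.269 and 0.349 CPM in sham cKO libraries and 0.00575, 0 and 0.0190 CPM in sham control libraries, the opposite order of the uninjured arms.

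Against cryoinjury, pmp22b, a peripheral myelin protein gene, had a difference of -2.3802 (adjusted p = 0.0404). It was at 135, 163 and 83.4 CPM in uninjured cKO libraries and 409, 206 and 366 CPM in uninjured control libraries. After cryoinjury it was at 210.0, 206 and 263 CPM in cKO libraries and 112, 104 and 119.6 CPM in control libraries, so the arms were apart in opposite orders. Limd1a, a LIM domain gene, had a difference of -1.4562 (adjusted p = 0.0457), and the call was kept in 5 of 12 fits without 1 library. The others were plaua at 4.1297 (adjusted p = 0.0404), sox4b at 2.1558 (adjusted p = 0.0383) and ENSDARG00000041221 at 8.4327 (adjusted p = 0.0383). ENSDARG00000041221 had 0 counts in every uninjured control library, so its fitted size depends on the prior count. With the lane term none of these 5 was called by edgeR, with adjusted p-values of 0.556 to 0.702, and 1235 of all genes were at an unadjusted p under 0.05.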

How the results depend on the processing

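The 27 called genes (21 higher, 6 lower) kept their direction in every alternative run. The count was 0 (0 higher, 0 lower) by edgeR in the 6 uninjured libraries alone, with 442 genes higher and 343 lower at an unadjusted p under 0.05. It was 1 (0 higher, 1 lower) with the lane term, 6 (5 higher, 1 lower) among genes whose mean reached 5 CPM, and 619 (364 higher, 255 lower) with DESeq2. Size factors gave 28 and no filter 26. Leaving out 1 uninjured library gave 12 to 557 called, 8 to 353 higher and 4 to 204 lower. The difference against sham, 5 genes, was 247 with DESeq2 and 9 with the replicate block, and that against cryoinjury, 5 genes, was 0 with lane, 330 with DESeq2 and 20 with the block. Leaving out 1 library gave 0 to 65 against sham and 0 to 121 against cryoinjury. The cause was not tested. For the replicate numbers, the log2 level of each gene in an uninjured library was taken as a deviation from the mean of its arm. Between the arms, these deviations had correlations of 0.165, 0.00548 and 0.187 for libraries of the same number. For libraries of unlike number the correlations were -0.217 to 0.0995, and these values do not decide whether the numbers pair the libraries. The block gave 30 calls, 8 of the 27 among them. List medians moved in 51 of 636 comparisons. The B cell list had no gene at 5 CPM.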
